A study of Homo sapiens with 9 samples.

Results

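The nuclear RNA exosome and its adaptors were followed here through 9 human genes, chosen by name for their part in nuclear RNA decay: MTREX, ZFC3H1, ZC3H18, ZCCHC8, RBM7, PABPN1, EXOSC3, EXOSC10 and DIS3. The choice was made with earlier results of these data known. Every transcript annotated to these genes was taken, which gave 82 of the 215170 transcripts quantified and 9 of the 56347 genes to which transcripts could be assigned. The values are those of RNAs of the genes that encode the decay machinery, not of its proteins or its activity. They include transcripts not annotated as protein-coding.

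The RNA exosome is a barrel of inactive subunits that threads RNA towards ribonucleases and degrades it from the 3′ end. In the nucleus it depends on the helicase MTREX, which unwinds substrates and joins several adaptor assemblies. In the NEXT complex MTREX is bound by the scaffold ZCCHC8 and the RNA-binding protein RBM7, which bring in short, unadenylated transcripts such as promoter upstream RNAs. In the PAXT connection it is bound by the zinc-finger protein ZFC3H1, which works with the nuclear poly(A)-binding protein PABPN1 on longer polyadenylated RNAs that remain in the nucleus. ZC3H18 connects both assemblies with the cap-binding complex, EXOSC3 is a cap subunit of the barrel, EXOSC10 is a distributive ribonuclease of the nuclear exosome, and DIS3 is its processive ribonuclease.

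The study sequenced polyadenylated RNA from nuclei and from cytoplasm of human embryonic kidney cells, named HEK293 in the sample labels and 293 T in the methods, after transfection with a control siRNA or with siRNAs against both WTAP and KIAA1429. KIAA1429, also called Virilizer or VIRMA, and WTAP are subunits of the complex that methylates adenosine in mRNA, and the series addresses how that complex bears on mRNA export. The 9 samples analysed were 3 control nuclei (replicates 1 to 3), 3 RNAi nuclei (replicates 1 to 3), 1 control cytoplasm (replicate 2) and 2 RNAi cytoplasms (replicates 1 and 2). "RNAi" stands for the joint depletion of WTAP and KIAA1429 throughout, so effects of either subunit cannot be told apart. Nothing in the labels says that replicates were separate cultures, so p-values measure the spread between these samples, which may be technical.

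Total estimated counts lay between 11627403 and 19036141 per sample, and the tests covered 16181 genes, each with 10 or more estimated counts in 3 or more of the samples. Both siRNA targets were lower in RNAi cells. WTAP fell by 0.83 on the log2 scale in nuclei (standard error (SE) 0.128, edgeR FDR = 0.0169) and by 1.72 in cytoplasm (SE 0.184, edgeR FDR = 0.000791), and VIRMA fell by 1.08 (SE 0.212, edgeR FDR = 0.0314) and 2.07 (SE 0.315, edgeR FDR = 0.00268). All 5 markers of HEK293 cells looked up and found were detected in every sample, among them KRT8 at 15.8 to 30.5 CPM (counts scaled to a common library size), whereas 5 markers of other cell types summed to 0.0779 to 1.21 CPM, with HBB at 0 in every sample. Nuclear long non-coding RNAs (MALAT1, NEAT1 and KCNQ1OT1) summed to 255 to 354 CPM in control nuclei, 390 to 419 CPM in RNAi nuclei, 33.2 CPM in control cytoplasm and 19.7 to 20.5 CPM in RNAi cytoplasm. Differences are given as log2 fold changes between groups from the quasi-likelihood test of edgeR, with the Benjamini-Hochberg false discovery rate (FDR) over all genes tested, and a gene was called where FDR was under 0.1 and the log2 difference exceeded 0.5 in size, the limits of the study. In bulk samples such as these, fewer cells with an RNA and less of that RNA per cell cannot be told apart.

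On GRCh37 (hg19), MTREX lies at chr5:54603817-54721407 (+), ZFC3H1 at chr12:72003379-72061505 (-), ZC3H18 at chr16:88636811-88698372 (+) and ZCCHC8 at chr12:122956147-122985479 (-). RBM7 lies at chr11:114270752-114284925 (+), PABPN1 at chr14:23790666-23795372 (+), EXOSC3 at chr9:37759231-37832114 (-), EXOSC10 at chr1:11126675-11159926 (-) and DIS3 at chr13:73326307-73356234 (-). Several share exon bases with a neighbour, so their counts carry that uncertainty: PABPN1 shares 1447 bases on its own strand with the readthrough gene BCL2L2-PABPN1 (0 to 57 estimated counts per sample), RBM7 shares 431 and EXOSC3 shares 205 with unnamed same-strand genes, and DIS3 shares 1180 on the opposite strand with BORA. Opposite-strand overlaps also exist for MTREX with PLPP1 (481 bases), RBM7 with C11orf71 (482), EXOSC3 with TRMT10B (452) and DCAF10 (53), and EXOSC10 with an unnamed long non-coding RNA gene (2196 bases, 0 to 21 estimated counts per sample) and EXOSC10-AS1 (149 bases). The strand setting of the quantification is not given in the sources used here.

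PABPN1, EXOSC10 and ZC3H18 were the most abundant of the 9 mRNAs in both fractions. Levels between genes were compared in TPM, a share of the library that accounts for transcript length, summed over all transcripts of a gene. In control nuclei ZCCHC8-203, annotated as a retained intron, took 85.6% of the TPM of ZCCHC8. The full-length coding form ZFC3H1-201 took 15.8% of that of ZFC3H1. In control nuclei PABPN1 had 75.4 ± 28.9 TPM (SD, n = 3), EXOSC10 65.5 ± 18.3 and ZC3H18 39.1 ± 8.9. ZCCHC8 followed with 13.2 ± 4.17 TPM, EXOSC3 with 9.55 ± 2.43, ZFC3H1 with 5.28 ± 1.99, MTREX with 4.86 ± 1.97, DIS3 with 4.22 ± 0.679 and RBM7 with 2.29 ± 0.268. The sample ranges of PABPN1 and EXOSC10 overlapped, as did those of ZCCHC8 with EXOSC3, EXOSC3 with ZFC3H1, and ZFC3H1 with MTREX and DIS3, so these neighbours were not separated. EXOSC10 and ZC3H18, ZC3H18 and ZCCHC8, and DIS3 and RBM7 did not overlap. In the control cytoplasm sample the 3 most abundant remained PABPN1 (97.1 TPM), EXOSC10 (74.1) and ZC3H18 (68.8), and the lowest was ZFC3H1 (1.63), below ZCCHC8 (6.03), RBM7 (7.27), MTREX (8.84), DIS3 (10.3) and EXOSC3 (10.9). In RNAi cytoplasm (n = 2) ZFC3H1 was again lowest at 0.247 ± 0.0224 TPM, and DIS3 (2.56 ± 0.348) and MTREX (2.68 ± 0.0908) were next.

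**Figure D1:**
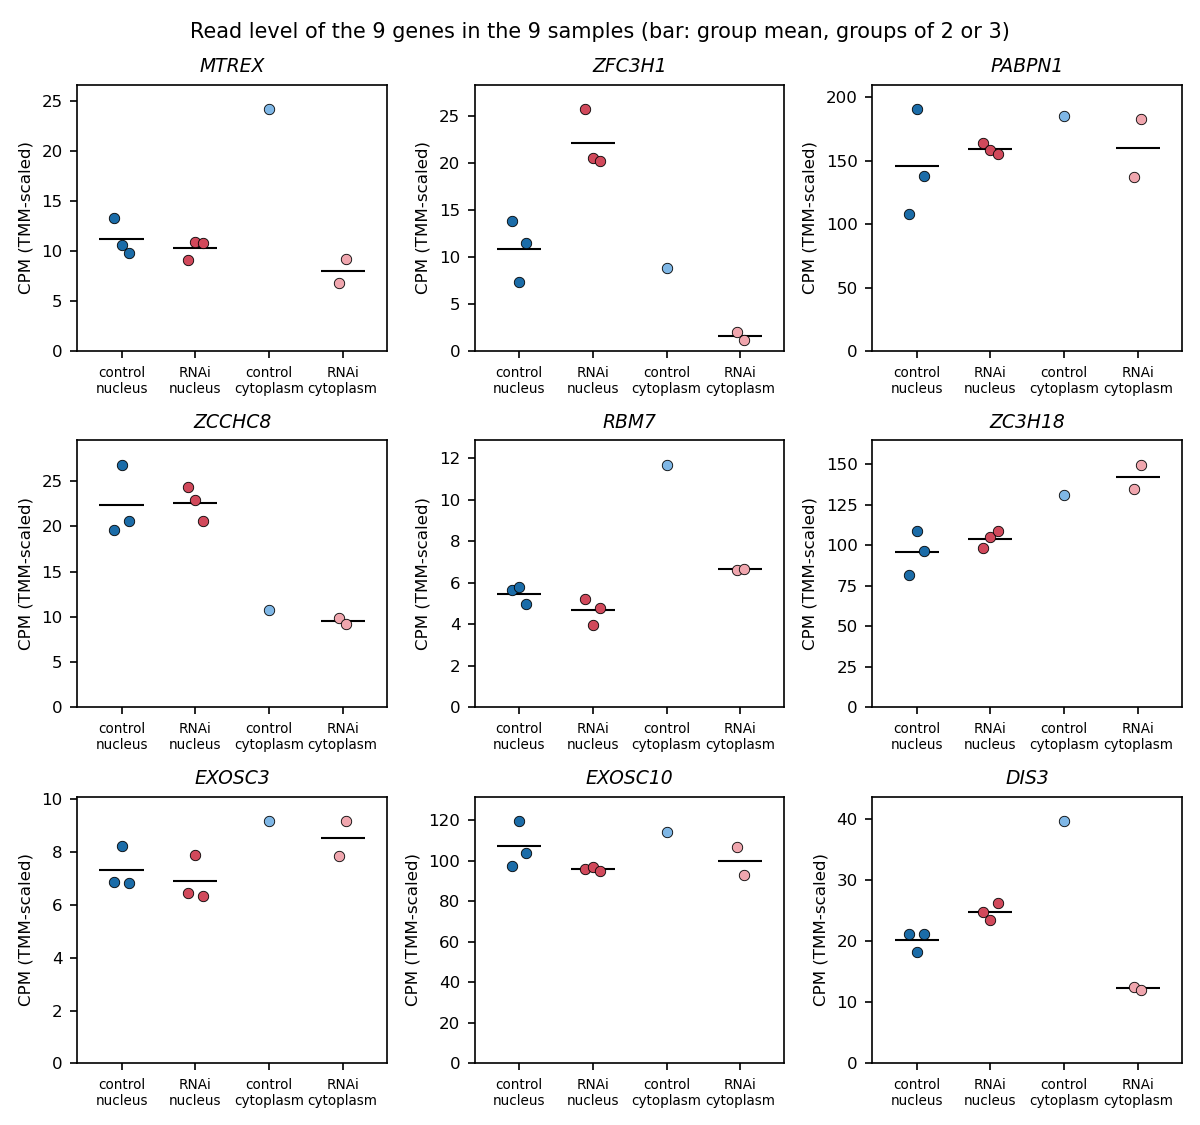
CPM (TMM-scaled, linear axis) of each of the 9 genes, 1 point per sample, in control nuclei (n = 3), RNAi nuclei (n = 3), control cytoplasm (n = 1) and RNAi cytoplasm (n = 2), with a bar at the mean of groups of 2 or 3. MTREX, ZFC3H1, RBM7 and DIS3 sit lower in both RNAi cytoplasms than in the control cytoplasm, and ZFC3H1 sits higher in all 3 RNAi nuclei than in all 3 control nuclei.

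The first comparison asked how the depletion moved these mRNAs within the nucleus. ZFC3H1, the PAXT zinc-finger protein, was the only 1 of the 9 genes that passed the test. Its level was 13.8, 7.36 and 11.5 CPM in control nuclei and 25.7, 20.5 and 20.2 CPM in RNAi nuclei. The groups did not overlap. The increase was 2.04-fold (log2 1.03, SE 0.22, 95% interval 0.54 to 1.51, edgeR FDR = 0.0397). Over all genes tested 2.47% were called higher and 2.42% lower in RNAi nuclei, against 1 and 0 of 9 here, and the median log2 difference was 0.02 for the 9 genes and 0 for all genes. At an unadjusted p under 0.05, 2 genes were higher and 0 lower, a limit at which all genes were not counted. DESeq2 also called 1 higher and 0 lower, against 325 and 291 of the 16181 genes tested. The call on ZFC3H1 was lost without control nucleus replicate 3 (log2 1.06, edgeR FDR = 0.135) and without RNAi nucleus replicate 1 (log2 0.91, edgeR FDR = 0.134), replicate 2 (log2 1.08, edgeR FDR = 0.123) or replicate 3 (log2 1.09, edgeR FDR = 0.139), and in limma on log2(TPM + 0.1) (log2 1.34, FDR = 0.155).

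DIS3, the processive ribonuclease, was the other gene under an unadjusted p of 0.05. It had 21.3, 18.3 and 21.2 CPM in control nuclei and 24.8, 23.4 and 26.3 CPM in RNAi nuclei. These groups did not overlap either, but the difference missed both limits (log2 0.29, SE 0.109, unadjusted p = 0.0209, edgeR FDR = 0.158). EXOSC10, the distributive ribonuclease, had 97.5, 120 and 104 CPM in control nuclei and 95.6, 97.0 and 94.9 CPM in RNAi nuclei, again without overlap and without a call (log2 -0.16, SE 0.1, 95% interval -0.38 to 0.06, edgeR FDR = 0.4). For the remaining 6 genes the groups overlapped, and their differences ran from -0.22 for RBM7 (SE 0.165, 95% interval -0.59 to 0.14, edgeR FDR = 0.474) to 0.13 for PABPN1 (SE 0.182, 95% interval -0.27 to 0.53, edgeR FDR = 0.729). How often the nuclear groups lie apart over all genes tested was not counted, so a lack of overlap alone marks no difference here. The interval of MTREX was -0.5 to 0.23.

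The second comparison was that of RNAi with control cytoplasm, where 4 of the 9 mRNAs were lower: DIS3, MTREX, RBM7 and ZFC3H1. These encode a ribonuclease, the common helicase, a NEXT subunit and the PAXT scaffold. The control group held 1 sample, so its spread was taken from the other groups and every fold change rests on that sample.

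DIS3 had 39.8 CPM in the control cytoplasm and 12.5 and 12.0 CPM in RNAi cytoplasm. Both RNAi samples were far below the control and close to each other. The decrease was 3.23-fold (log2 -1.69, SE 0.158, 95% interval -2.04 to -1.34, edgeR FDR = 0.000589). MTREX had 24.2 CPM in the control and 6.85 and 9.18 CPM after RNAi, a decrease of 3.04-fold (log2 -1.60, SE 0.235, 95% interval -2.13 to -1.08, edgeR FDR = 0.00231).

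ZFC3H1 had 8.88 CPM in the control and 2.02 and 1.20 CPM after RNAi, which rests on 146 against 26 and 11 estimated counts. It had the deepest decrease of the 9, 5.32-fold, and the widest interval of the 4 called (log2 -2.41, SE 0.399, 95% interval -3.29 to -1.53, edgeR FDR = 0.00371). RBM7 had 11.7 CPM in the control and 6.62 and 6.67 CPM after RNAi. Its decrease was the smallest of the 4, 1.76-fold (log2 -0.81, SE 0.224, 95% interval -1.31 to -0.32, edgeR FDR = 0.029).

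Over all genes tested 14.2% were called lower and 10.4% higher in RNAi cytoplasm, against 4 and 0 of the 9 genes, and the median log2 difference was -0.21 for the 9 and 0.01 for all genes. DESeq2 called the same number, 4 lower and 0 higher, against 1781 lower and 1640 higher over all genes. Scaling by library size alone moved the median of all genes to -0.24 and the calls over all genes from 1681 higher and 2305 lower to 431 and 3200, and of the 9 genes 4 were lower and 0 higher. The call on RBM7 was lost with average transcript length as an offset (log2 -0.83, edgeR FDR = 0.285) and in limma on log2(TPM + 1) (FDR = 0.163) and log2(TPM + 0.1) (FDR = 0.208), and that on ZFC3H1 was lost in limma on log2(TPM + 1) (log2 -1.08, FDR = 0.106).

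The other 5 mRNAs did not pass in cytoplasm. ZC3H18 had 131 CPM in the control and 135 and 150 CPM after RNAi (log2 0.12, SE 0.167, 95% interval -0.25 to 0.49, edgeR FDR = 0.667). EXOSC10 had 114 CPM against 107 and 92.8 CPM (log2 -0.19, SE 0.149, 95% interval -0.52 to 0.14, edgeR FDR = 0.405). PABPN1 had 185 CPM against 137 and 183 CPM (log2 -0.21, SE 0.27, 95% interval -0.81 to 0.39, edgeR FDR = 0.623). For these the intervals reach no further than 0.81 below the control on the log2 scale. EXOSC3 had 9.19 CPM against 7.87 and 9.18 CPM (log2 -0.11, 95% interval -0.63 to 0.4, edgeR FDR = 0.776), and ZCCHC8, the NEXT scaffold, had 10.7 CPM against 9.89 and 9.18 CPM (log2 -0.16, 95% interval -0.66 to 0.33, edgeR FDR = 0.65). Within NEXT, therefore, MTREX and RBM7 passed the test and ZCCHC8 did not. The difference between these genes was not itself tested.

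Other RNAs that mark the fractions moved in the same comparison. MALAT1 was lower in RNAi cytoplasm (log2 -1.20, edgeR FDR = 0.0642), as was KCNQ1OT1 (log2 -0.79, edgeR FDR = 0.056), while NEAT1 did not pass (log2 -0.32, edgeR FDR = 0.224). The cytoplasm-rich mRNAs GAPDH, RPLP0 and EEF1A1 summed to 11060 CPM in the control cytoplasm and 13580 to 13850 CPM in RNAi cytoplasm, and none of the 3 passed. In nuclei their sum was 6273 to 7074 CPM in control cells and 6060 to 6627 CPM in RNAi cells. Between control fractions GAPDH and EEF1A1 were called cytoplasm-rich, while RPLP0 missed the fold limit (log2 -0.30). The part of these fraction markers in the decreases of DIS3, MTREX, RBM7 and ZFC3H1 was not tested.

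**Figure D2:**
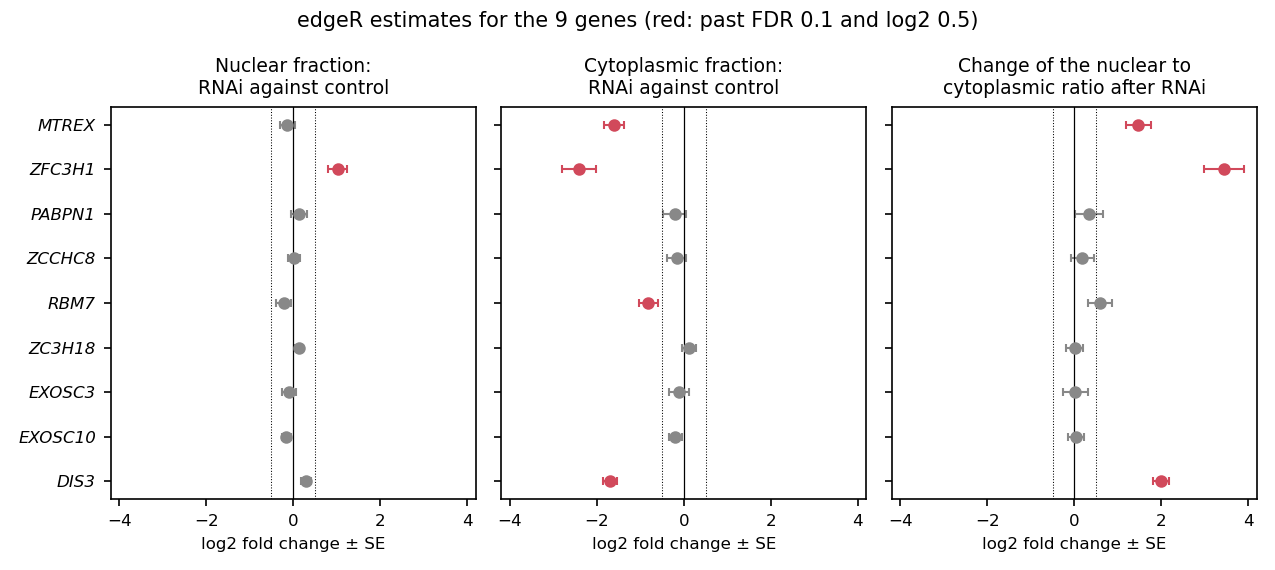
Log2 fold changes with standard errors for the 9 genes in nuclei (RNAi against control), in cytoplasm (RNAi against control) and for the change of the nuclear/cytoplasmic ratio after RNAi, with dotted lines at -0.5 and 0.5 and genes that passed FDR 0.1 and the fold limit in red. ZFC3H1 passes in nuclei (1.03), DIS3, MTREX, RBM7 and ZFC3H1 pass in cytoplasm (-2.41 to -0.81), and DIS3, MTREX and ZFC3H1 pass for the ratio (1.47 to 3.44).

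The third comparison set the nucleus against the cytoplasm in control cells. Values in the 2 fractions are each scaled to their own library, so a positive value means a larger share of nuclear than of cytoplasmic RNA. MTREX, RBM7 and DIS3 were cytoplasm-rich, and ZCCHC8 was nucleus-rich. MTREX was 2.14-fold lower in nuclei (log2 -1.10, SE 0.211, edgeR FDR = 0.00198), RBM7 2.13-fold (log2 -1.09, SE 0.205, edgeR FDR = 0.00179) and DIS3 1.96-fold (log2 -0.97, SE 0.143, edgeR FDR = 0.000456). ZCCHC8 had 19.6, 26.8 and 20.5 CPM in control nuclei against 10.7 CPM in control cytoplasm, 2.08-fold higher (log2 1.06, SE 0.213, edgeR FDR = 0.00257). ZFC3H1 did not pass (log2 0.29, SE 0.322, edgeR FDR = 0.476), but this depended on the scale: it was called nucleus-rich with average transcript length as an offset (log2 1.62, edgeR FDR = 0.0157) and in limma on log2(TPM + 1) (log2 1.21, FDR = 0.0189) and log2(TPM + 0.1) (log2 1.57, FDR = 0.0137). ZC3H18 passed the FDR but not the fold limit (log2 -0.46, edgeR FDR = 0.0311), and it was called cytoplasm-rich under the same 3 alternatives (log2 -0.93 to -0.82) and with no filter on low counts (log2 -0.57). Over all genes tested 28% were called higher and 22.7% lower in nuclei, against 1 and 3 of the 9, with a median log2 difference of -0.35 for the 9 and 0.04 for all genes. Without control nucleus replicate 2 the number called rose from 4 to 7, by ZFC3H1 (log2 0.52, edgeR FDR = 0.0928), ZC3H18 (log2 -0.55, edgeR FDR = 0.00693) and PABPN1 (log2 -0.58, edgeR FDR = 0.021). Over all genes 4582 were then called higher and 3733 lower of 15943 tested, against 4537 and 3679 of 16181 with all samples.

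In RNAi cells the order was different. ZFC3H1 was 13.2-fold higher in nuclei than in cytoplasm (log2 3.73, SE 0.33, edgeR FDR = 1.11e-05), ZCCHC8 2.37-fold (log2 1.24, SE 0.171, edgeR FDR = 0.000159) and DIS3 2.02-fold (log2 1.02, SE 0.13, edgeR FDR = 9.95e-05). DIS3 thus passed as cytoplasm-rich in control cells and as nucleus-rich in RNAi cells. ZFC3H1 had a larger difference with the length offset (log2 5.32) and in limma on log2(TPM + 0.1) (log2 5.23). MTREX did not pass in RNAi cells (log2 0.37, SE 0.195, edgeR FDR = 0.123). It was called nucleus-rich in 5 of 19 alternative analyses: library size alone (log2 0.65), 10 counts in every sample (log2 0.56), both limma fits on TPM (log2 0.66 and 0.82) and without RNAi cytoplasm replicate 2 (log2 0.61, edgeR FDR = 0.0565). RBM7 stayed cytoplasm-rich (log2 -0.50, SE 0.184, edgeR FDR = 0.0352), a call that lay at the fold limit and was lost in 10 of 19 alternative analyses, among them those without control nucleus replicate 1 (log2 -0.46), 2 (log2 -0.49) or 3 (log2 -0.47), RNAi nucleus replicate 2 (log2 -0.40) and RNAi cytoplasm replicate 1 (log2 -0.51, edgeR FDR = 0.105) or 2 (log2 -0.47). ZC3H18 passed the FDR but not the fold limit (log2 -0.45, edgeR FDR = 0.00952). It was called cytoplasm-rich with no filter (log2 -0.55) and without RNAi cytoplasm replicate 1 (log2 -0.53), and had the opposite sign in limma on log2(TPM + 1) (log2 0.066). Over all genes tested 32.9% were called higher and 24.9% lower in RNAi nuclei than in RNAi cytoplasm, against 3 and 1 of the 9. With scaling by library size alone the counts were 4 and 0 of the 9, against 6456 and 2089 over all genes.

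The change of the nuclear/cytoplasmic ratio, the interaction between siRNA and fraction, tested whether the effect of the depletion differed between the fractions. It uses the same samples as the comparisons above and is not independent of them. ZFC3H1 shifted most, 10.8-fold towards the nucleus (log2 3.44, SE 0.454, 95% interval 2.43 to 4.44, edgeR FDR = 0.00271), and less in limma on log2(TPM + 1) (log2 2.27, FDR = 0.0194). DIS3 shifted 3.97-fold (log2 1.99, SE 0.192, 95% interval 1.56 to 2.41, edgeR FDR = 0.000831) and MTREX 2.77-fold (log2 1.47, SE 0.289, 95% interval 0.83 to 2.11, edgeR FDR = 0.0123). For DIS3 and MTREX the shift came with a called decrease in cytoplasm and no call in nuclei, and for ZFC3H1 with a call in each fraction. RBM7 did not pass (log2 0.59, SE 0.28, 95% interval -0.03 to 1.21, edgeR FDR = 0.2).

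Over all genes tested 10.4% were called higher and 7.87% lower for the change of the ratio, against 3 and 0 of the 9. DESeq2 called 3 and 0 of the 9, against 1282 and 1141 over all genes. The median change was 0.34 for the 9 genes and -0.05 for all genes. The estimate was above 0 for 9 of 9, but all of them rest on the same 1 control cytoplasm sample. The share of all genes above 0 was not counted. Of 18 alternative analyses, 5 reversed the sign for ZC3H18, 4 for EXOSC3 and 1 for EXOSC10. For EXOSC10 (log2 0.03, 95% interval -0.37 to 0.43), ZC3H18 (log2 0.01, 95% interval -0.44 to 0.45), EXOSC3 (log2 0.02, 95% interval -0.61 to 0.65), ZCCHC8 (log2 0.18, 95% interval -0.4 to 0.77) and PABPN1 (log2 0.34, 95% interval -0.38 to 1.06) the interval included 0. Among the fraction markers, KCNQ1OT1 (log2 1.58, edgeR FDR = 0.00985), MALAT1 (log2 1.33, edgeR FDR = 0.0936) and NEAT1 (log2 0.84, edgeR FDR = 0.025) shifted the same way, and their part in the shifts of ZFC3H1, DIS3 and MTREX was not tested. The call on MTREX was lost with average transcript length as an offset (log2 1.36, edgeR FDR = 0.135).

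The genes also differed in the composition of their mRNAs. For each gene the most abundant protein-coding transcript was taken, and its length and its content of G and C were read from the annotation. MTREX had 38.6% G and C over 3961 nt, DIS3 39.1% over 10571 nt and ZFC3H1 41.0% over 7037 nt, the 3 lowest values of G and C among the 9. RBM7, the other gene lower in RNAi cytoplasm, had 46.7% over 692 nt. This value is of RBM7-207, which took 6.2% of the gene's TPM in control nuclei and 16.6% in control cytoplasm. RBM7-206, not annotated as protein-coding, took 47.3% and 51.1%. The 5 genes without a call there had between 43.4% (ZCCHC8) and 58.7% (ZC3H18). The value of ZCCHC8 is of ZCCHC8-207, whereas ZCCHC8-203, annotated as a retained intron, took 85.6% of that gene's TPM in control nuclei. The median over the 13348 genes tested with such a transcript was 50.6% and 2586 nt. Some annotated lengths differ from those that were quantified, among them that of DIS3-201, quantified at 7371 nt. With 9 genes these values are a description only.

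Transcripts of the same gene were distributed unequally between the fractions, among them several that keep intron sequence, which did not all run in the same direction. Of the 82 transcripts, 29 reached 1 TPM in at least 3 samples and entered a limma fit on log2(TPM + 1) over 46718 transcripts. A transcript near 0 in the 3 cytoplasms could enter only through the 6 nuclei. This holds for PABPN1-202, ZC3H18-208, ZFC3H1-210 and EXOSC10-209, so their differences between fractions are a description. With no filter on low values these transcripts kept their calls between fractions. In control cells 7 were higher and 4 lower in nuclei than in cytoplasm, against 20.2% and 8.36% of all transcripts tested, and in RNAi cells 13 were higher and 2 lower, against 32.9% and 7.72%. Transcripts annotated as retained introns took 15.1% to 17.2% of the TPM of the 9 genes in the 6 nuclei and 2.69% to 2.87% in the 3 cytoplasms. Across all matched transcripts in the table that share was 5.12% to 7.78% with overlapping ranges in both fractions. In ZCCHC8 the most abundant transcript, ZCCHC8-203, carries this annotation but holds only 241 intron bases of 1829 and took a larger share of its gene in control cytoplasm (93.8%) than in control nuclei (85.6% ± 2.75, SD, n = 3). Without it the share of the 9 genes was 9.6% to 12.6% in nuclei and 0.36% to 0.76% in cytoplasm.

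The splice sites left unused by intron-keeping transcripts that were higher in nuclei, and by MTREX-208, are shown because they set these annotated transcripts apart from the spliced form. Reads across these sites were not examined, and the values are assignments of reads to annotated transcripts. Each line gives GRCh37 sequence 5′ to 3′ on the strand of the gene, 6 exon and 20 intron bases at a 5′ site or 23 intron and 6 exon bases at a 3′ site, with the terminal dinucleotide of the intron in capitals. PABPN1-202 keeps all 957 bases of the last of 6 introns (chr14:23793499-23794455), with its 5′ site at chr14:23793493-23793518 (+) and its 3′ site at chr14:23794433-23794461 (+). ZC3H18-208 reads through the 3′ site of intron 13 of 17 at chr16:88694007-88694035 (+). ZFC3H1-210 reads through the 3′ site of intron 30 of 34 at chr12:72007210-72007238 (-) and the 5′ site of intron 32 at chr12:72005546-72005571 (-). EXOSC10-209 reads through the 5′ site of intron 12 of 24 at chr1:11140801-11140826 (-), and its first exon also lies within an intron of EXOSC10-202. MTREX-208 keeps the last of 26 introns, 1737 bases, with its 5′ site at chr5:54718805-54718830 (+) and its 3′ site at chr5:54720525-54720553 (+).
PABPN1 intron 6, 5′ site: ctacagGTcaggatagatgggctgct
PABPN1 intron 6, 3′ site: ctaactctccttctttcttccAGgggccg
ZC3H18 intron 13, 3′ site: gtgagatgtgcttgtgtgtccAGgtccct
ZFC3H1 intron 30, 3′ site: ttcgcccccctcaacctttacAGgttatt
ZFC3H1 intron 32, 5′ site: gaaaatGTaatgcaacaatcatgtac
EXOSC10 intron 12, 5′ site: ttacggGTaagggattagaggttctt
MTREX intron 26, 5′ site: cagaagGTcagtatcaaatggataag
MTREX intron 26, 3′ site: aaccttactttcttttctcttAGgaatca
All 8 windows carry the GT or AG dinucleotide of the major splice-site class.

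**Figure D3:**
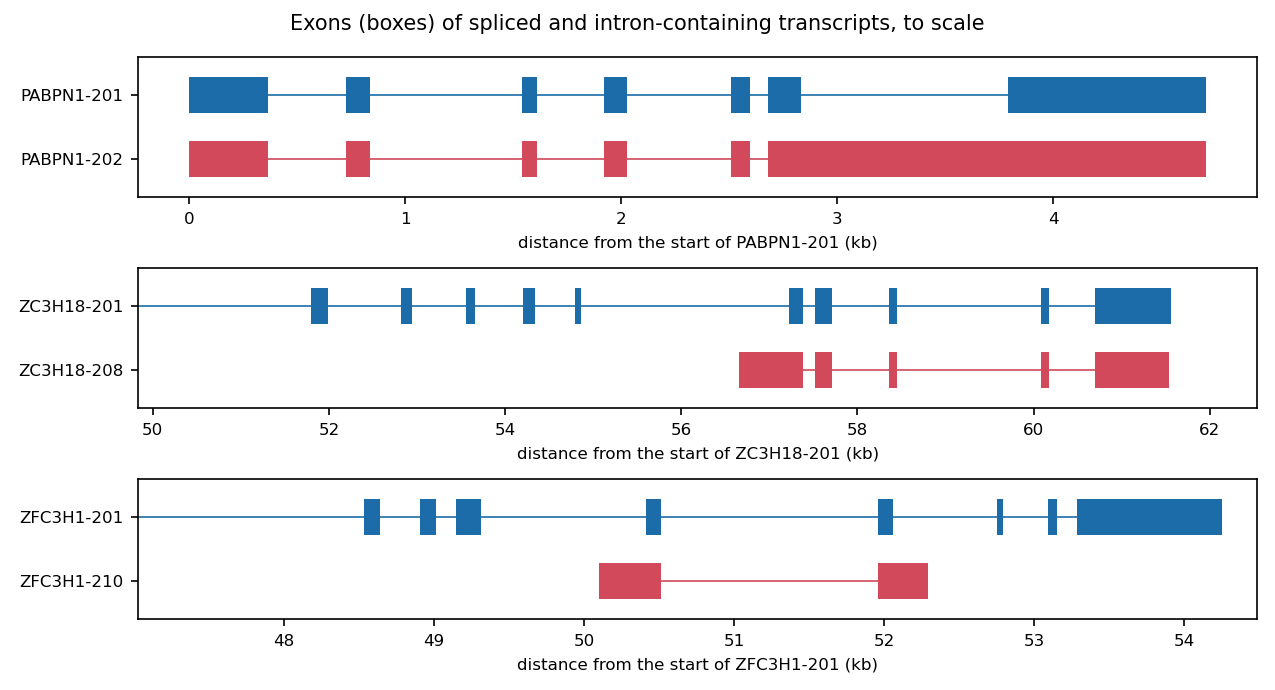
Exons (boxes) and introns (lines) of the spliced and the intron-keeping transcript of PABPN1 (whole), ZC3H18 and ZFC3H1 (3′ part), to scale in kilobases from the start of the spliced form. PABPN1-202 runs through the last intron, 957 bases, ZC3H18-208 begins within intron 13, and ZFC3H1-210 extends into introns 30 and 32.

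PABPN1 gave the most abundant of these forms. PABPN1-202 had 13.3, 28.9 and 20.8 TPM in control nuclei and 21.1, 27.1 and 24.4 TPM in RNAi nuclei, but 0.61 TPM in control cytoplasm and 0.93 and 0.6 TPM in RNAi cytoplasm. Every nucleus was above every cytoplasm. It made up 27.8% ± 1.84 (SD, n = 3) of the PABPN1 TPM in control nuclei, 29.3% ± 2.44 (SD, n = 3) in RNAi nuclei, 0.63% in control cytoplasm and 1.14% ± 0.43 (SD, n = 2) in RNAi cytoplasm, and rested on 560 to 1003 estimated counts per nucleus and 19.9 to 37 per cytoplasm. On the log2(TPM + 1) scale it was higher in nuclei by 3.70 in control cells (SE 0.387, limma FDR = 0.00169) and by 3.83 in RNAi cells (SE 0.306, limma FDR = 0.000184). The siRNA made no called difference within nuclei (log2 0.25, limma FDR = 0.771). The spliced PABPN1-201 had 33.3, 72.6 and 42.7 TPM in control nuclei, 53.6, 52.8 and 50.9 in RNAi nuclei, 94.2 in control cytoplasm and 61.5 and 71.3 in RNAi cytoplasm. It took 65.3% ± 3.36 (SD, n = 3) of the gene in control nuclei and 97.0% in control cytoplasm. PABPN1 as a whole gene thus had no called difference between fractions (log2 -0.35, edgeR FDR = 0.278), while its isoforms were distributed unequally.

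ZC3H18 and EXOSC10 also had an intron-keeping transcript that was higher in nuclei, and EXOSC10 had another that was not. ZC3H18-208 had 6.56, 8.24 and 6.99 TPM in control nuclei, 6.91, 9.29 and 9.83 in RNAi nuclei, 0.41 in control cytoplasm and 0.26 and 0.33 in RNAi cytoplasm. No nucleus came near a cytoplasm, and the difference between fractions was 2.55 in control cells (limma FDR = 0.00165) and 2.89 in RNAi cells (limma FDR = 0.000134) on the log2(TPM + 1) scale. It made up 18.9% ± 1.95 (SD, n = 3) of the gene in control nuclei and 0.59% in control cytoplasm. EXOSC10-209 had 4.45, 9.03 and 6.71 TPM in control nuclei and 18.8, 13.4 and 8.09 in RNAi nuclei, and was listed at 0 in 2 of the 3 cytoplasms and at 1.16 TPM in RNAi cytoplasm replicate 1. It was higher in nuclei in both conditions, by 2.91 (limma FDR = 0.014) and 3.23 (limma FDR = 0.00167) on the log2(TPM + 1) scale. The nuclear groups of EXOSC10-209 overlapped and the difference between them did not pass (log2 0.87, limma FDR = 0.46). EXOSC10-205, a fragment of 401 nt that holds 35 of 416 bases of intron 16, was more abundant than EXOSC10-209 in every sample but RNAi nucleus replicate 1, where they were close. It had 15.7, 25.2 and 8.85 TPM in control nuclei, 18.8, 32.8 and 20.1 in RNAi nuclei, 35.9 in control cytoplasm and 15.4 and 20.1 in RNAi cytoplasm. In control cells its values ran towards the cytoplasm without a call (log2 -1.18, SE 0.523, limma FDR = 0.149), with 24.7% ± 7.86 (SD, n = 3) of the gene's TPM in nuclei and 48.5% in cytoplasm.

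MTREX-208 had 0.32 to 0.97 TPM in the 6 nuclei and 0.03 to 0.12 TPM in the 3 cytoplasms, and was too low to enter the fit. RBM7-204, which keeps all 1645 bases of the last RBM7 intron, was also too low. Its mean was 0.42 TPM in control nuclei and in RNAi nuclei, close to 0.3 TPM in control cytoplasm and a mean of 0.36 TPM in RNAi cytoplasm. The size of the differences called between fractions depends on the constant added to TPM, because the cytoplasmic values of these transcripts lie near 0. With 0.1 in place of 1 the differences were 4.82 for PABPN1-202, 3.85 for ZC3H18-208 and 6.04 for EXOSC10-209 in control cells.

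**Figure D4:**
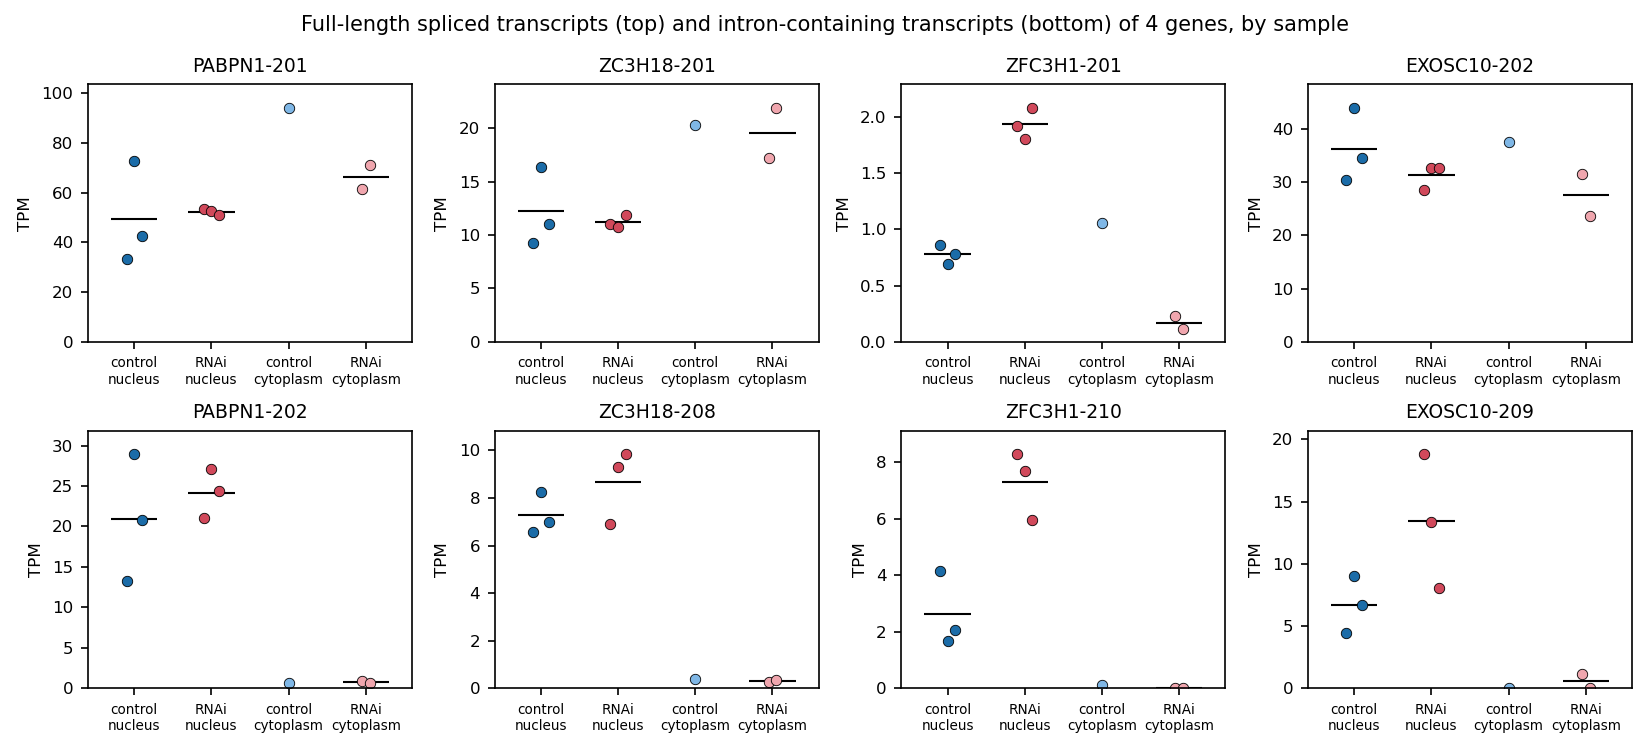
TPM by sample (linear axes, 1 point per sample, with a bar at the mean of groups of 2 or 3) of the spliced transcripts PABPN1-201, ZC3H18-201, ZFC3H1-201 and EXOSC10-202 (top) and the intron-keeping transcripts PABPN1-202, ZC3H18-208, ZFC3H1-210 and EXOSC10-209 (bottom). The transcripts of the bottom row were chosen because they were higher in nuclei. That every nucleus lies above every cytoplasm there follows from this choice and is no test of intron-keeping against spliced forms. Other intron-keeping transcripts, some without this separation, are not shown. In the top row none of the 4 spliced transcripts has every nucleus above every cytoplasm.

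ZFC3H1 combined the intron-keeping form with its response to the depletion. ZFC3H1-210, a fragment of 746 nt from the 3′ part of the gene, had 4.15, 1.69 and 2.05 TPM in control nuclei and 8.28, 7.7 and 5.95 in RNAi nuclei. It had 0.1 TPM in control cytoplasm and was listed at 0 in both RNAi cytoplasms. All RNAi nuclei were above all control nuclei, and it took 48.7% ± 6.89 (SD, n = 3) of the gene's TPM in control nuclei and 56.1% ± 2.25 (SD, n = 3) in RNAi nuclei. The nuclear difference did not pass over all transcripts (log2 1.24, SE 0.272, limma FDR = 0.193). The full-length ZFC3H1-201 had 0.86, 0.69 and 0.78 TPM in control nuclei and 1.92, 1.8 and 2.08 in RNAi nuclei, without overlap between groups (log2 0.72, limma FDR = 0.237). In cytoplasm ZFC3H1-201 had 1.06 TPM in the control and 0.23 and 0.11 TPM after RNAi. It did not pass between fractions in control cells (log2 -0.21) and was higher in nuclei of RNAi cells (log2 1.32, limma FDR = 0.00229). The intron-keeping and the full-length form thus both had higher values in RNAi nuclei, but neither passed alone. How often the nuclear groups lie apart over all transcripts tested was not counted, so their lack of overlap alone marks no difference. ZFC3H1-209, also annotated as a retained intron, had 0.67 to 2.69 TPM in nuclei and was listed at 0 in all 3 cytoplasms. ZFC3H1-203, which holds 74 of 246 bases of intron 13, ran the other way as a share of the gene in control cells, with 1.18% ± 2.04 (SD, n = 3) in nuclei and 23.9% in cytoplasm, at no more than 0.74 TPM in any sample.

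No member transcript was called in RNAi against control nuclei. Of the 29, limma called 0 higher and 0 lower, against 0.178% and 0.0642% of all transcripts. At an unadjusted p under 0.05, 3 of the 29 were higher and 0 lower, a limit at which all transcripts were not counted. DESeq2 was run on genes only. ZC3H18-205 had the largest of these differences (log2 2.10, unadjusted p = 0.00713, limma FDR = 0.275). The median difference was 0.18 for the 29 and 0.05 for all transcripts tested.

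Between fractions of control cells the called transcripts beside those above were EXOSC10-204 (log2 1.08), EXOSC10-210 (log2 1.13) and ZC3H18-204 (log2 0.80) towards the nucleus, and ZC3H18-205 (log2 -3.56), DIS3-204 (log2 -1.97), RBM7-206 (log2 -1.19) and RBM7-207 (log2 -0.94) towards the cytoplasm. DIS3-204 and RBM7-206 are annotated as targets of nonsense-mediated decay, a pathway of translated mRNA. DIS3-204 had 7.25 TPM in the control cytoplasm, against 0.01 to 2.64 TPM in control nuclei, and 1.09 and 1.13 TPM in RNAi cytoplasm. The control cytoplasm was above every other sample. The call on DIS3-204 was lost at an FDR of 0.05 (limma FDR = 0.0641), on log2(TPM + 0.1) (log2 -3.20, limma FDR = 0.183) and with no filter on low values (limma FDR = 0.29). DIS3-201, the main protein-coding form, had 1.43, 2.19 and 1.8 TPM in control nuclei, 2.34, 2.3 and 2.36 in RNAi nuclei, 1.7 in control cytoplasm and 0.68 and 0.37 in RNAi cytoplasm. Both forms of DIS3 had lower values in the RNAi cytoplasms than in the control cytoplasm. RBM7-206 had 3.72 TPM in control cytoplasm and 1.57 and 1.73 TPM in RNAi cytoplasm. In RNAi cells the further transcripts called towards the nucleus were ZCCHC8-203 (log2 1.23), DIS3-201 (log2 1.14), EXOSC10-204 (log2 1.30), EXOSC10-206 (log2 1.29), EXOSC10-210 (log2 1.18), PABPN1-208 (log2 1.52), ZC3H18-204 (log2 0.98) and ZC3H18-209 (log2 0.88). Towards the cytoplasm they were ZC3H18-201 (log2 -0.74) and RBM7-206 (log2 -0.85).

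Other transcripts took at least 10% of the TPM of their gene in some group, and of those tested only ZC3H18-205, named above, was called between fractions or in nuclei. MTREX was shared mainly between MTREX-201 and MTREX-207, the latter annotated as a target of nonsense-mediated decay. MTREX-201 had 0.78, 1.68 and 1.18 TPM in control nuclei, 2.96 in control cytoplasm and 0.28 and 1.03 in RNAi cytoplasm. MTREX-207 had 1.76, 0.91 and 1.25 TPM, 3.11, and 1.31 and 0.57 in the same samples. Both forms had their highest value in the control cytoplasm, and their differences between the cytoplasms did not pass (log2 -1.30 and -1.11, limma FDR = 0.349 and 0.367). MTREX-203 and MTREX-206, short forms, were listed at 0 in some nuclei.

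EXOSC3-202 took 44.8% ± 10.3 (SD, n = 3) of EXOSC3 in control nuclei and 74.4% in control cytoplasm, with 3.79 to 4.55 and 8.1 TPM. The difference did not pass (log2 -0.83, limma FDR = 0.118), and EXOSC3-201 lay between 1.82 and 3.41 TPM in all 9 samples. EXOSC3-204 and EXOSC3-208 were listed at 0 in the 3 cytoplasms. In ZC3H18, ZC3H18-202 lay between 5.65 and 13.4 TPM in all samples and ZC3H18-206 between 0.89 and 18.4 TPM, the highest in control cytoplasm. ZC3H18-205, a short form of 387 nt, had 3.74, 0 and 0 TPM in control nuclei and 18.8 TPM in control cytoplasm. RBM7-201, RBM7-203 and RBM7-204 reached at most 1.2 TPM, and DIS3-203 and DIS3-205 at most 1.03 TPM.

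The wider decay machinery was described with 29 other genes in pathway lists. The lists also hold the 9 genes, and MTREX counts in the NEXT, TRAMP and PAXT lists alike. In nuclei, where 2.47% of all genes were called higher and 2.42% lower, 2 of the 29 were higher, ZCCHC7 of the TRAMP complex (log2 0.65, edgeR FDR = 0.0762) and SKIC3 of the SKI complex (log2 0.73, edgeR FDR = 0.0664), and 1 was lower, the cofactor C1D (log2 -1.54, edgeR FDR = 0.0215). In cytoplasm, where 10.4% of all genes were called higher and 14.2% lower, 3 of the 29 were higher and 12 lower. The PAXT partners RBM27 (log2 -1.88, edgeR FDR = 0.000791) and RBM26 (log2 -1.41, edgeR FDR = 0.00212) fell beside ZFC3H1 and MTREX, whereas ZC3H3 rose (log2 0.80, edgeR FDR = 0.00607). Of the 6 genes of the PAXT list, 1 was higher and 4 were lower in cytoplasm, with a median of -1.51 against 0.01 over all genes. Of the 9 core subunits of the barrel, EXOSC8 (log2 -0.83, edgeR FDR = 0.0405) and EXOSC9 (log2 -0.66, edgeR FDR = 0.0208) were lower and 0 higher, with a median of 0.19. Of the 3 NEXT genes 2 were lower, MTREX and RBM7, and of the 4 TRAMP genes 2 were lower, MTREX and the poly(A) polymerase TENT4B (log2 -1.36, edgeR FDR = 0.0173).

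Among the cap-binding genes NCBP1 (log2 -0.70, edgeR FDR = 0.00659) and NCBP3 (log2 -0.98, edgeR FDR = 0.0146) were lower and SRRT, which links the cap-binding complex to decay, was higher (log2 1.05, edgeR FDR = 0.0647), while ZC3H18 did not pass. SKIC3 (log2 -2.25, edgeR FDR = 0.00143) and HBS1L (log2 -1.11, edgeR FDR = 0.00659) of the cytoplasmic SKI list were lower, as was the 5′ exonuclease XRN1 (log2 -1.76, edgeR FDR = 0.00731), and the 3′ exonuclease DIS3L2 was higher (log2 0.78, edgeR FDR = 0.0235). The nuclear/cytoplasmic ratio rose for 8 of the 29, against 10.4% of all genes, with SKIC3 (log2 2.98), XRN1 (log2 2.29), RBM26 (log2 1.83) and RBM27 (log2 1.78) ahead, and fell for 1, ZC3H3 (log2 -0.70), against 7.87% of all genes. With DIS3, MTREX and ZFC3H1 these shifts toward the nucleus spanned both nuclear and cytoplasmic decay factors.

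**Figure D5:**
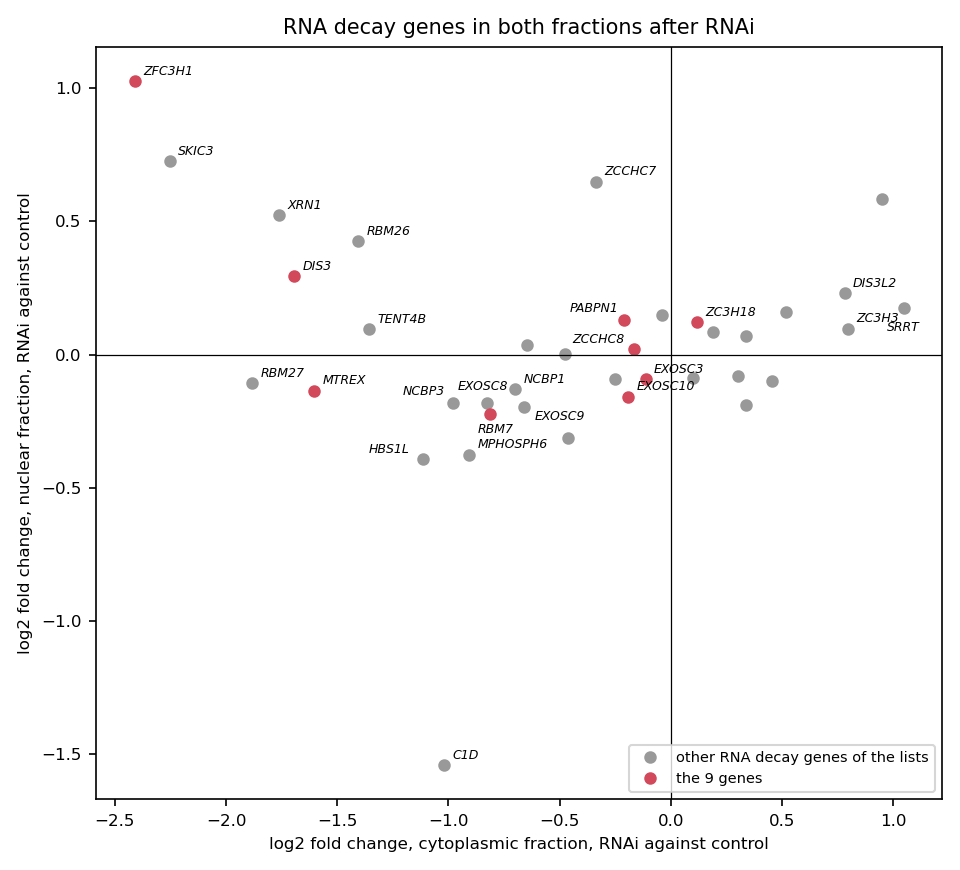
Log2 fold change after RNAi in nuclei (vertical) against cytoplasm (horizontal) for the 9 genes (red) and 29 other decay genes (grey, labelled where called in either fraction). ZFC3H1 lies at -2.41 and 1.03, SKIC3 at -2.25 and 0.73, and MTREX and DIS3 at -1.60 and -1.69 with nuclear values of -0.14 and 0.29.

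The pattern of MTREX over the 9 samples was closest to those of PTER, LRRC58 and NAA15. Each gene's log2 CPM was centred on its own mean, and the root mean square difference from MTREX was 0.134 for PTER, 0.138 for LRRC58 and 0.141 for NAA15 among 16180 genes compared. These distances are a description of 9 samples.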

How the data were processed

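RNA of nuclear and cytoplasmic fractions (9 samples) had been sequenced on an Illumina instrument from libraries made with the Lexogen SENSE mRNA kit. The authors trimmed reads with cutadapt, merged lanes and ran salmon against Ensembl transcripts of hg19 with non-coding RNA. The version and strand setting of salmon are not given in the sources used here. Per transcript they deposited an estimated count (not normalized), a TPM value (corrected for length, with the same total in every sample) and an effective length in nucleotides. The deposited effective lengths served only the length offset.

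Transcripts were matched by identifier to GENCODE version 44 on GRCh37, a newer annotation on the same build. Of 215170 transcripts, 183122 (85.1%) matched, with 83.07% to 88.31% of counts. For each gene the estimated counts of its transcripts were added and rounded to whole numbers. Depth was 11627403 to 19036141, at which 3 counts equal 0.19 to 0.303 CPM, and this covers counting error only.

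Genes were tested with edgeR 4.0.16 (TMM, 4 groups, quasi-likelihood, 5 residual degrees of freedom, R 4.3.3), with at least 10 counts in 3 samples, and transcripts with limma 3.58.1 on log2(TPM + 1). Scripts were tested on simulated counts. Standard errors follow from the F statistic. Replicates correlated at r = 0.972 to 0.986 across genes, and no pair agreed within sampling noise. Alternatives were DESeq2 1.42.0, library-size scaling, other filters, a length offset, limma on TPM, a replicate block and leaving out each sample.

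The 9 genes and the pathway lists were chosen with earlier results of these data known. Named are the 9 genes, the siRNA targets, up to 3 genes past both limits per list, transcripts with at least 10% of a gene's TPM in a group, genes overlapping the 9, and the 3 genes closest to MTREX. Fraction and cell markers, and further called transcripts, were named beside these. Splice-site sequences were read from the GRCh37 genome. Of the 82 transcripts, 72 have the same length in the table and the annotation.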

Additional observations from a re-analysis of the deposited data

Results flagged for a closer look

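The effect of the depletion differed between nucleus and cytoplasm for 3 of the 9 genes, by the test of the difference itself. The nuclear/cytoplasmic ratio of ZFC3H1 rose by 3.44 on the log2 scale (SE 0.454, edgeR FDR = 0.00271), that of DIS3 by 1.99 (SE 0.192, edgeR FDR = 0.000831) and that of MTREX by 1.47 (SE 0.289, edgeR FDR = 0.0123). All 3 values rest on the 1 control cytoplasm sample, without which they could not be computed.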

How the results depend on the processing

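Of 16 gene results past both limits, 273 of 293 alternative values kept direction and call, 20 kept direction only and 0 reversed, while of 29 results not past them, 51 of 535 values reversed and 17 passed. Of 11 transcript results past both limits 135 of 138 values kept the call, and the 3 lost were those of DIS3-204. Without control cytoplasm replicate 2 no cytoplasmic comparison could be made. Called members in nuclei numbered 0 in limma on log2(TPM + 0.1) and 0 to 1 with single samples left out (member transcripts 0 to 1), those in cytoplasm 2 in limma on log2(TPM + 1), and those between control fractions 4 to 7 with single samples left out. Scaling by library size alone moved the median of all genes in cytoplasm to -0.24 (431 higher and 3200 lower, against 1681 and 2305), in the ratio change to 0.23 (2236 and 164, against 1680 and 1274) and in RNAi cells between fractions to 0.30 (75.6% of calls higher, against 56.8%). In nuclei all-gene calls (400 and 392) became 332 and 158 with it, 32 and 20 without RNAi nucleus replicate 3, 57 and 49 without replicate 2, 127 and 129 without replicate 1, 46 and 42 without control nucleus replicate 3, 458 and 479 without replicate 2, 609 and 464 without replicate 1, 633 and 673 with no filter, 204 and 186 at an FDR of 0.05, 227 and 213 with the length offset, 152 and 22 in limma on log2(TPM + 1), and 18 and 4 on log2(TPM + 0.1). In cytoplasm the limma fits gave 99 and 1396, and 170 and 1728. For the ratio they gave 1044 and 30, and 1237 and 60, the length offset 1070 and 713, an FDR of 0.05 1160 and 738, and leaving out control or RNAi nucleus replicate 3 1346 and 574 or 1218 and 734. Between RNAi fractions 10 counts in every sample gave 3437 and 2602, against 5316 and 4035. Between control fractions leaving out control nucleus replicate 2 gave 4582 and 3733, against 4537 and 3679.

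The cause of the reversals was not tested. The main values concerned were not all near 0: ZC3H18 and EXOSC3 between RNAi fractions were at -0.45 and -0.31, ZFC3H1 between control fractions at 0.29 and DIS3-204 in nuclei at 0.47. Library size alone gave ZC3H18 in cytoplasm -0.14, and PABPN1 and EXOSC10 between RNAi fractions 0.28 and 0.21. No filter gave ZCCHC8 in nuclei -0.015, and a minimum of 10 counts in every sample gave PABPN1 and EXOSC10 between RNAi fractions 0.18 and 0.13. The length offset gave ZCCHC8 and EXOSC10 in nuclei -0.051 and 0.13, ZC3H18 in cytoplasm -0.19, EXOSC10 between RNAi fractions 0.24, and the ratio change of EXOSC3 -0.076. Limma on log2(TPM + 1) gave MTREX and EXOSC10 in nuclei 0.042 and 0.21, ZC3H18 in cytoplasm -0.45, and ZC3H18, PABPN1, EXOSC3 and EXOSC10 between RNAi fractions 0.066, 0.26, 0.042 and 0.66, and on log2(TPM + 0.1) these were 0.06, 0.21, -0.46, 0.067, 0.26, 0.046 and 0.67. With single samples left out, nuclear differences ran from -0.23 to 0.001 for MTREX, -0.072 to 0.18 for ZCCHC8, -0.051 to 0.38 for PABPN1, -0.19 to 0.004 for EXOSC3, -0.086 to 0.46 for PABPN1-201, -0.027 to 0.51 for PABPN1-202, -0.14 to 0.29 for ZCCHC8-203 and -0.062 to 0.86 for DIS3-204. ZC3H18 in cytoplasm ran from -0.01 to 0.19, PABPN1 between RNAi fractions from -0.20 to 0.25, EXOSC10 from -0.13 to 0.045, EXOSC10-202 from -0.012 to 0.38 and between control fractions from -0.21 to 0.053, and the ratio change from -0.067 to 0.13 for ZC3H18, -0.093 to 0.17 for EXOSC3 and -0.022 to 0.14 for EXOSC10.

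Samples with the same replicate number were not shown to be paired (correlations of their deviations 0.038 to 0.197). With the replicate block the 9 genes gave 1 call in nuclei, 4 in cytoplasm and 3 for the ratio. Between fractions they gave 4 in control and 3 in RNAi cells. Over all genes the block gave 550 higher and 486 lower in nuclei, 2066 and 2653 in cytoplasm and 2120 and 1918 for the ratio. Between fractions it gave 4340 and 3721 in control cells and 5303 and 4030 in RNAi cells. The block reversed EXOSC3 in cytoplasm (0.017), ZFC3H1 between control fractions (-0.04) and PABPN1 between RNAi fractions (0.044). It also reversed the ratio change of ZC3H18 (-0.10) and EXOSC3 (-0.10).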
